A study of Mus musculus with 4 samples.

Results

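The genes described here are 10 genes of bone morphogenetic protein (BMP) signalling, namely the ligands Bmp2 and Bmp4, the receptors Bmpr1a and Bmpr2, the inhibitory SMAD genes Smad6 and Smad7, and the ID genes Id1, Id2, Id3 and Id4. They were chosen by symbol, with earlier results of these data known, and each had a row in all 4 libraries, 10 of the 22488 genes listed. They were measured in vascular smooth muscle cells of C57BL/6 mice, cells that contract artery walls, kept in culture to passages 4 to 10. The cells had received either a scramble siRNA (2 libraries) or an siRNA to circEsyt2 (2 libraries) 48 hours earlier; circEsyt2 carries the name of its host gene, Esyt2. Libraries of untransfected cells were not analysed here, so which of the siRNAs moved a gene cannot be told apart, and no label says that replicates came from separate cultures, so the tests measure only the spread between these libraries.

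BMP ligands bind a pair of type I and type II receptor kinases, which phosphorylate SMAD1, SMAD5 and SMAD9. These join SMAD4, enter the nucleus and switch on target genes. The ID genes are the best known direct targets: they encode helix-loop-helix proteins without a DNA-binding region, which hold E proteins and their partners away from DNA. SMAD6 and SMAD7 are induced by the pathway and dampen it in return, SMAD6 mainly on the BMP side and SMAD7 on both the BMP and TGF-beta sides. In smooth muscle the pathway is known for its part in growth and differentiation, and loss of BMPR2 function underlies heritable pulmonary arterial hypertension.

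Values are FPKM, which are scaled to gene length and library size, so that levels can be set beside each other between genes. The counts behind them, recovered from their digits, totalled 2516428 to 4116791 per library. Esyt2, the host gene, had 53.4 and 50.6 FPKM with scramble siRNA and 40.6 and 48.7 FPKM with circEsyt2 siRNA (limma with Benjamini-Hochberg adjustment, adjusted p = 0.318), a value over the whole gene that checks nothing about the circle. Of 10 smooth muscle markers 8 to 9 were above 1 FPKM in each library, with Acta2 at 829 to 1446 FPKM, while Des and Myocd stayed between 0.189 and 1.05 FPKM. The library of circEsyt2 siRNA replicate 1 stood apart, since all 14 hepatocyte markers were above 1 FPKM in it and were highest there, Alb (albumin) reaching 2082 FPKM. Their summed FPKM was 3360 in that library, 106 in circEsyt2 siRNA replicate 2 and 13.4 and 5.56 with scramble siRNA.

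All 4 ID genes were lower with circEsyt2 siRNA, and so was Smad6, whereas Smad7, Bmp2 and the receptor genes Bmpr1a and Bmpr2 did not pass the test. Of the 9 genes that could be tested, 5 fell and 0 rose, at a mean FPKM of at least 1 and an adjusted p under 0.05 in limma. Over all 11290 genes tested, 12.7% were called, 7.26% as lower and 5.47% as higher. The median log2 fold change was −0.94 over the 9 genes and 0.00366 over all genes tested. Since the genes were chosen with earlier results known, setting them beside all genes is no independent test. Log2 fold changes here are of FPKM + 1, which understates the change of low genes. The groups did not overlap for the 5 that fell, with both circEsyt2 siRNA libraries lower, nor for Bmp2 and Bmpr2, with both higher; over all tested genes this held for 31.1% and 29.7%. Bmp4 was too low to be tested. RNA came from whole cultures, in which fewer cells of a kind and less RNA per cell cannot be told apart.

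**Figure D1:**
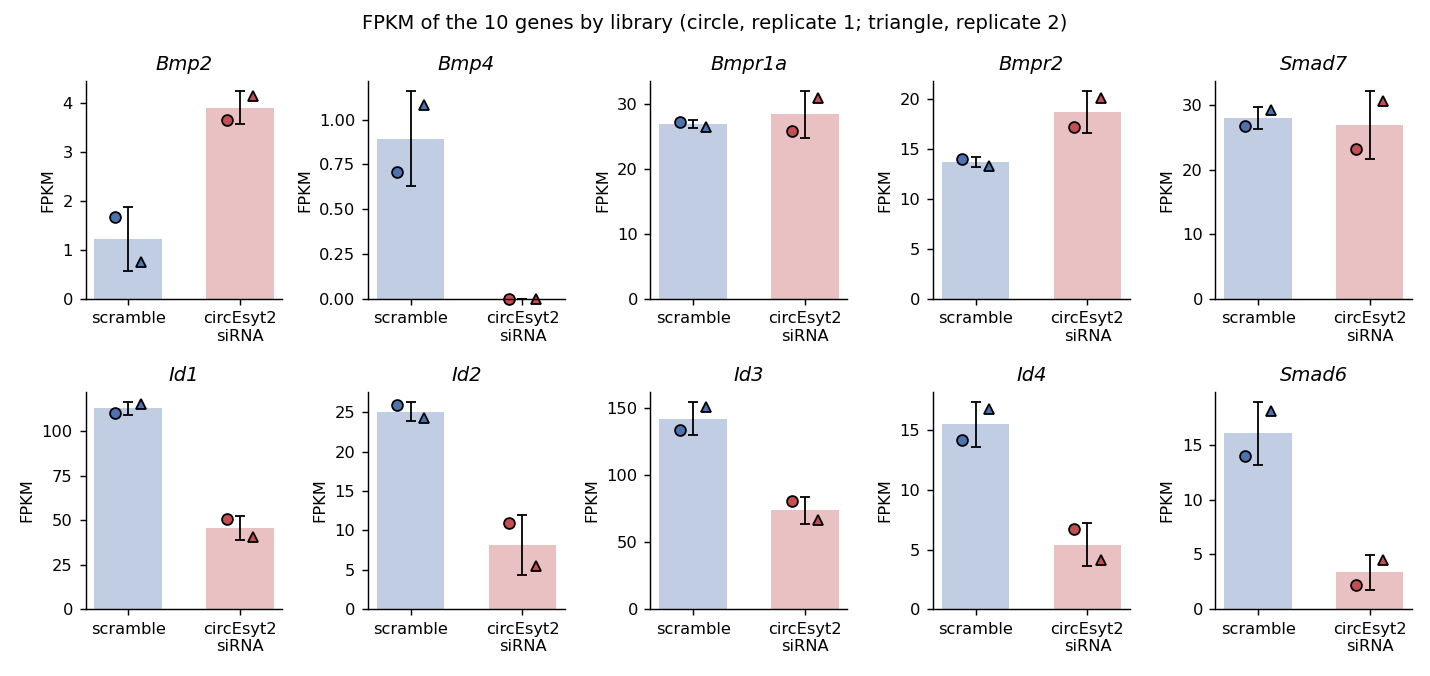
FPKM of each of the 10 genes in the 2 scramble libraries and the 2 circEsyt2 siRNA libraries. Bars are group means, error bars SD (n = 2), circles replicate 1 and triangles replicate 2. For Id1, Id2, Id3, Id4 and Smad6 both circEsyt2 siRNA points lie below both scramble points, and Bmp4 is at 0 in both circEsyt2 siRNA libraries.

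Id1 and Id3 were the most abundant of the 10 genes in every library. Id1 (Entrez 15901, chromosome 2 at 152736251 to 152737410 of GRCm38, plus strand) had 110 and 115 FPKM in scramble replicates 1 and 2, and 50.6 and 40.8 FPKM in circEsyt2 siRNA replicates 1 and 2. Both circEsyt2 siRNA libraries were thus well below both scramble libraries. By mean FPKM Id1 was 2.47-fold lower, at 113 ± 3.59 against 45.7 ± 6.93 (SD, n = 2), and its log2 fold change was −1.29 (SE 0.14; limma adjusted p = 0.00532). Those values rest on 322 and 551 counted reads against 221 and 148.

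Id3 (Entrez 15903, chromosome 4 at 136143497 to 136145755, plus strand) had 134 and 151 FPKM with scramble siRNA and 81.1 and 67.0 FPKM with circEsyt2 siRNA. Its groups did not overlap, which held for 60.7% of all tested genes in either direction, and it showed the smallest fall of the 4, 1.92-fold by mean FPKM. The log2 fold change of Id3 was −0.94 (SE 0.14; limma adjusted p = 0.0126). Of the summed FPKM of the 4 ID genes, Id1 and Id3 together made up 85.9% and 86.7% with scramble siRNA against 88.2% and 91.8% in the circEsyt2 siRNA libraries.

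Id2 and Id4 were expressed at lower levels. Id2 (Entrez 15902, chromosome 12 at 25093799 to 25097140, minus strand) had 25.9 and 24.2 FPKM with scramble siRNA and 10.9 and 5.51 FPKM with circEsyt2 siRNA. The 2 circEsyt2 siRNA libraries differed from each other here, replicate 1 resting on 100 counted reads and replicate 2 on 42. The log2 fold change of Id2 was −1.57 (SE 0.29; limma adjusted p = 0.0241), with −1.13 for replicate 1 and −2.0 for replicate 2 relative to the scramble mean. Id4 (Entrez 15904, chromosome 13 at 48261228 to 48266026, plus strand) had 14.1 and 16.8 FPKM with scramble siRNA and 6.69 and 4.15 FPKM with circEsyt2 siRNA. As for Id2, replicate 2 was the lower of the 2 circEsyt2 siRNA libraries, and the log2 fold change was −1.38 (SE 0.23; limma adjusted p = 0.0194). Exons of Id4 overlap A330033J07Rik and Gm49291 on the other strand, and whether the counting used strand is not known.

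The summed FPKM of Id1, Id2, Id3 and Id4 was 284 and 307 in the scramble libraries, against 149 and 117 with circEsyt2 siRNA. By group mean the circEsyt2 siRNA libraries held 45.1% of the scramble level. The order of levels was Id3, Id1, Id2, Id4 in all 4 libraries. In the scramble libraries these levels differed by more than the spread between replicates at each step.

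Of the 2 circEsyt2 siRNA libraries, replicate 1, with the higher hepatocyte markers, had the lower Smad6 level, and replicate 2 had the lower levels of Id1, Id2, Id3 and Id4. Replicate 2 also had 12 of the 14 hepatocyte markers above 1 FPKM, against 2 in each scramble library. The part of those markers in the result was not tested. Some of the other marker sums moved with the groups. That of 10 smooth muscle markers was 1935 and 1944 FPKM with scramble siRNA against 1246 and 1203 FPKM, and that of 8 fibroblast markers 909 and 820 against 636 and 726 FPKM. Members of these lists did not all move alike. Acta2 was the largest part of the first sum (1421 and 1446 against 883 and 829 FPKM), while Cald1, Des and Myocd overlapped between the groups. In the fibroblast list Thy1, Mfap5, Pdgfra and Lum were lower in both circEsyt2 siRNA libraries. Dcn was higher in both (184 and 190 against 205 and 192 FPKM), and Col1a1, Col1a2 and Pi16 overlapped. The sum of 9 endothelial markers was higher, at 4.04 and 4.68 against 9.89 and 8.16 FPKM. Kdr moved most, at 1.23 and 1.26 against 4.32 and 4.0 FPKM. Cdh5, Emcn and Erg were also higher in both circEsyt2 siRNA libraries, while Pecam1, Tek, Tie1 and Vwf overlapped and Cldn5 was at 0 throughout. Sums of 8 macrophage markers (12.7 and 14.6 against 40.4 and 9.30 FPKM) and 6 epithelial markers (10.8 and 15.2 against 23.5 and 14.4 FPKM) overlapped between the groups. Both were highest in circEsyt2 siRNA replicate 1, as were the hepatocyte markers. The part of these lists was not tested either. Without circEsyt2 siRNA replicate 1, limma called the same 5 genes lower, with log2 fold changes of −1.45, −2.0, −1.07 and −1.67 for Id1 to Id4 and −1.62 for Smad6. Without scramble replicate 1 or scramble replicate 2 it called 0 of the 10 genes (6 at an unadjusted p under 0.05 in each fit) and 0 genes in all (1959 and 2231 at an unadjusted p under 0.05). Id3 and Id4 also lost their calls without circEsyt2 siRNA replicate 2, and Id2, Id3 and Id4 with eBayes without a trend. In the fit without circEsyt2 siRNA replicate 2, 64 genes had a residual SD of 0, which limma's variance prior reads as data. With such genes left out, a choice made after seeing the data, all 5 genes were called without either circEsyt2 siRNA library and 0 without either scramble library, where 6 had an unadjusted p under 0.05 in each fit.

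**Figure D2:**
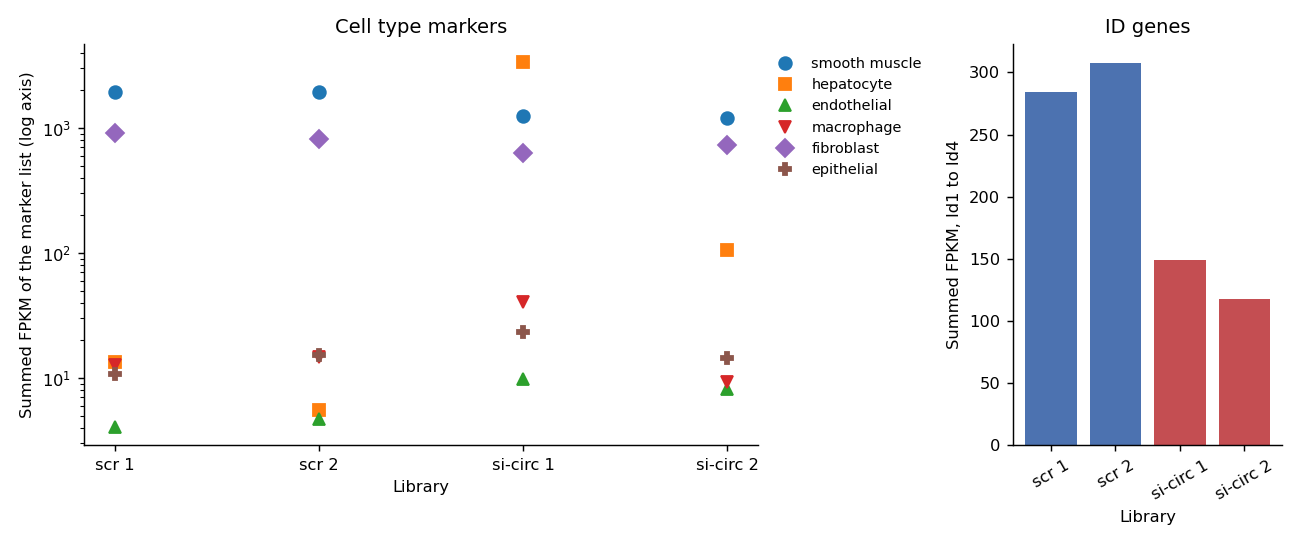
Left, summed FPKM of 6 cell type marker lists in each library on a log axis. Right, summed FPKM of Id1, Id2, Id3 and Id4 in the same libraries. Hepatocyte markers reach 3360 in circEsyt2 siRNA replicate 1 and 106 in replicate 2, while the ID sum is 149 and 117 in those libraries.

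Smad6 had the lowest log2 fold change of the 9 tested genes, though without circEsyt2 siRNA replicate 1 those of Id2 (−2.0) and Id4 (−1.67) were below that of Smad6 (−1.62). Smad6 (Entrez 17130, chromosome 9 at 63953076 to 64022059, minus strand) had 14.0 and 18.0 FPKM with scramble siRNA and 2.24 and 4.49 FPKM with circEsyt2 siRNA. Neither circEsyt2 siRNA library came near the scramble level, and replicate 1, with 27 counted reads, was the lower. By mean FPKM Smad6 was 4.76-fold lower, at 16.0 ± 2.85 against 3.36 ± 1.59 (SD, n = 2), with a log2 fold change of −2.0 (SE 0.29; limma adjusted p = 0.0124).

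The promoters of genes that fell together are shown because ID genes and Smad6 are known as direct SMAD targets. RefSeq windows of GRCm38.p6 were found for 7 of the 10 genes (Bmp4, Bmpr1a, Bmpr2, Id2, Id3, Id4 and Smad6), each reaching from 250 bases before to 50 bases after the annotated start. Searched on both strands were GGCGCC, a GC-rich motif bound by SMAD1 and SMAD5, GTCTAGAC, the palindromic SMAD-binding element, and CANNTG, the E-box bound by the E proteins that ID proteins hold back. All 3 are their own reverse complement apart from the bases N. GGCGCC was present in 1 copy each in the windows of Id2, Id4, Bmpr1a and Bmpr2, against 11.9% of the 32851 windows of all genes. In the 7 genes, 62.8% to 78.8% of the 250 bases before the start were G or C. GTCTAGAC was present in the Smad6 window only, against 0.213% of all windows. Below are the 250 bases before the start of Id4 (chr13:48260866-48261115, plus strand) and of Smad6 (chr9:64022060-64022309, minus strand), 5′ to 3′, with motif bases in capitals.
Id4: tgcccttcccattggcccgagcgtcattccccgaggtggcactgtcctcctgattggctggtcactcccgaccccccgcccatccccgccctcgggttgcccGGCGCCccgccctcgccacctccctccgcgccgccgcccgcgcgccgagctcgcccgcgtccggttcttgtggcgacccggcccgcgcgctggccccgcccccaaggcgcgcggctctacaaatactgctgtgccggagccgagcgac
Smad6: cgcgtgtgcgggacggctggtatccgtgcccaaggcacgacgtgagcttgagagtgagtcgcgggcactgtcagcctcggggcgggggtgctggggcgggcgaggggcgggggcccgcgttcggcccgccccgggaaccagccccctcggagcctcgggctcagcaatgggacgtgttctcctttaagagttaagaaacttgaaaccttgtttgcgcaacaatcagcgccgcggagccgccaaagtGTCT
In Id4 the capitals are GGCGCC, which begins 148 bases before the start. In Smad6 they are the first bases of GTCTAGAC, which begins 4 bases before the start and ends inside the transcript. CANNTG was found in 1 copy in Id2 and in Smad6, in 3 copies in Bmp4 and in none of the windows of Id3, Id4, Bmpr1a and Bmpr2, against 72.3% of all windows. GGCGCC occurred in windows of genes that fell (Id2 and Id4) and of genes that did not pass the test (Bmpr1a and Bmpr2), and the Id3 window held none of the 3. Of the 250 bases before the start, 161 in Id2, 141 in Bmpr1a and all in Id3 and Bmpr2 lie inside exons of longer GENCODE M21 transcripts of the same gene, so those windows are partly or wholly transcribed sequence. These are matches of letters, and binding was not measured.

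Smad7 (Entrez 17131, chromosome 18 at 75367529 to 75395935, plus strand) had 26.8 and 29.2 FPKM with scramble siRNA and 23.1 and 30.6 FPKM with circEsyt2 siRNA. Here the groups overlapped, with circEsyt2 siRNA replicate 2 the highest of the 4 libraries and replicate 1 the lowest. The log2 fold change of Smad7 was −0.07 (95% interval −0.48 to 0.34; limma adjusted p = 0.801), and without circEsyt2 siRNA replicate 1 it turned to 0.12. The ratio of Smad7 to Smad6 FPKM was 1.91 and 1.62 in the scramble libraries, against 10.3 and 6.81 with circEsyt2 siRNA. That difference between the 2 genes was not tested.

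The ligand genes were at low levels, and Bmp4 was close to the limit of detection. Bmp2 (Entrez 12156, chromosome 2 at 133552159 to 133562885, plus strand) had 1.68 and 0.752 FPKM with scramble siRNA and 3.66 and 4.14 FPKM with circEsyt2 siRNA. Both circEsyt2 siRNA libraries were above both scramble libraries, on 49 and 46 counted reads against 15 and 11. The log2 fold change of Bmp2 was 1.18 (SE 0.31) and missed the threshold (limma adjusted p = 0.0597). With limma's voom on the recovered counts it passed (adjusted p = 0.0412), with a log2 fold change of 1.90.

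Bmp4 (Entrez 12159, chromosome 14 at 46383520 to 46390669, minus strand) had 0.707 and 1.08 FPKM with scramble siRNA, from 4 and 10 counted reads. It was at 0 in both circEsyt2 siRNA libraries, where a floor of 3 counted reads per library stands for 0.354 and 0.427 FPKM. By mean FPKM the scramble level of Bmp4 was 2.29-fold that floor. This is no firm bound, since counted reads need not be independent fragments and the scramble level rests on few of them. Its mean over the 4 libraries was under 1 FPKM, and with no filter on low values it did not pass the test (limma adjusted p = 0.120). Exons of Bmp4 overlap Gm15217 on the other strand.

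The receptor genes kept their order. Bmpr1a, a type I receptor gene (Entrez 12166, chromosome 14 at 34410734 to 34503341, minus strand), had 27.3 and 26.5 FPKM with scramble siRNA and 25.9 and 31.0 FPKM with circEsyt2 siRNA. The groups overlapped, and the log2 fold change of 0.07 had a 95% interval of −0.27 to 0.41 (limma adjusted p = 0.753). Its exons overlap Gm17110 on the other strand. Bmpr2, the type II receptor gene (Entrez 12168, chromosome 1 at 59763400 to 59879014, plus strand), had 14.0 and 13.3 FPKM with scramble siRNA and 17.2 and 20.1 FPKM with circEsyt2 siRNA. Both circEsyt2 siRNA libraries were higher, by a log2 fold change of 0.42 (95% interval 0.06 to 0.78; limma adjusted p = 0.120). As with Bmp2, voom on the recovered counts called Bmpr2 (adjusted p = 0.0334).

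**Figure D3:**
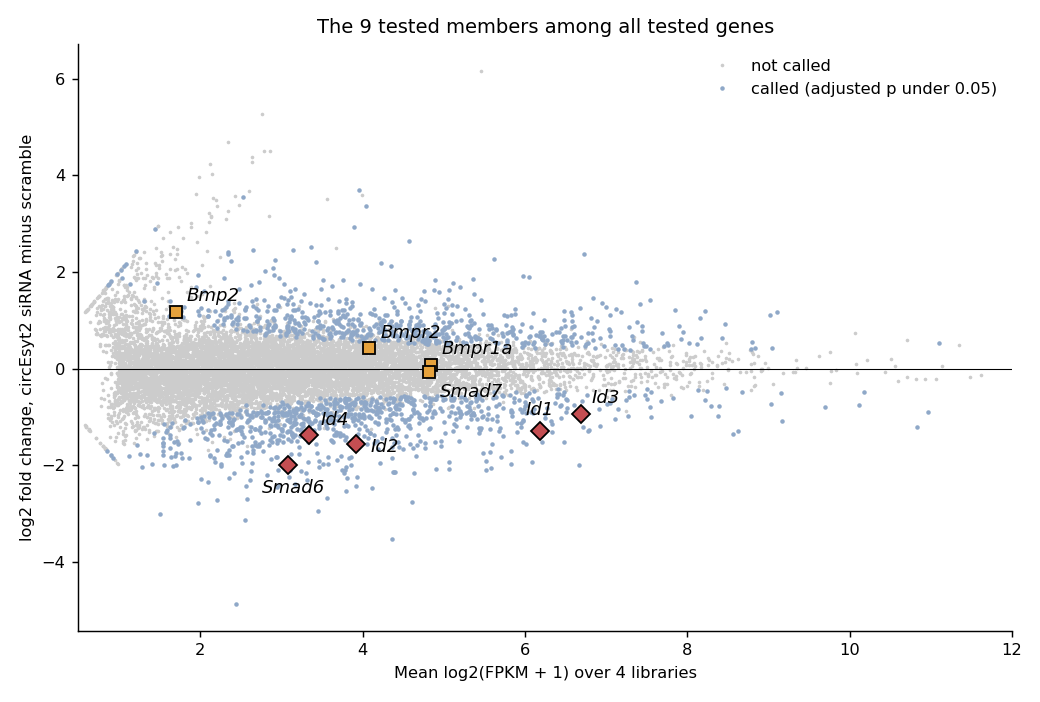
Log2 fold change against mean log2(FPKM + 1) for the 11290 tested genes, grey where not called and blue where called. Red diamonds are the 5 of the 10 genes that fell and orange squares the 4 tested ones that did not pass. Id1 and Id3 are among the more abundant genes, and Smad7 and Bmpr1a lie near 0.

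Other genes of the pathway were read from 7 lists with 79 genes, of which 51 could be tested. Of these 11 fell, 3 rose and 37 did not pass, so 27.5% were called against 12.7% of all tested genes. Their median log2 fold change was −0.07. The lists too were chosen with earlier results of these data known, so these shares are no independent test.

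Most other ligand genes were barely detected, and 10 of the 12 on the list were too low to test. Gdf10, which encodes a divergent member of the ligand family, fell from 10.1 and 13.9 FPKM with scramble siRNA to 2.75 and 1.35 FPKM with circEsyt2 siRNA (log2 fold change −2.12; limma adjusted p = 0.0108). Bmp6 measured 1.94 and 2.12 FPKM against 1.02 and 2.13 FPKM, overlapping groups, and did not pass (limma adjusted p = 0.628). Exons of Bmp6 overlap those of Txndc5 on the other strand, so some of its counts may be shared. Txndc5 had 83.3 and 87.7 FPKM with scramble siRNA and 25.5 and 25.0 FPKM with circEsyt2 siRNA.

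Among receptors and co-receptors 2 of 9 tested genes fell and 0 rose. The co-receptor gene Eng, endoglin, fell from 23.4 and 17.2 FPKM to 9.58 and 9.48 FPKM (log2 fold change −1.0; limma adjusted p = 0.0228). Tgfbr3, betaglycan, fell from 76.2 and 62.6 FPKM to 37.1 and 40.8 FPKM (log2 fold change −0.81; adjusted p = 0.0204 in limma). The activin type II receptor gene Acvr2a had 9.02 and 10.3 against 15.5 and 14.8 FPKM and missed the threshold (limma adjusted p = 0.0513). The type I receptor gene Bmpr1b had 5.80 and 5.58 against 8.06 and 7.62 FPKM (limma adjusted p = 0.159). Exons of Eng, Acvr2a and Tgfbr3 overlap those of Fpgs, Orc4 and Gm43422, so some of their counts may be shared.

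Of the 4 genes of signal-carrying SMADs, Smad1 rose and the others did not pass. Smad1 measured 13.0 and 11.2 FPKM with scramble siRNA and 20.2 and 20.7 FPKM with circEsyt2 siRNA (log2 fold change 0.71; limma adjusted p = 0.0299), a direction opposite to that of the ID genes. Smad4, the partner of all receptor SMADs, had 39.9 and 37.5 against 52.1 and 55.7 FPKM (adjusted p = 0.0512 in limma). Smad5 had 11.1 and 9.46 against 10.3 and 9.09 FPKM, with a log2 fold change of −0.07 (95% interval −0.47 to 0.33). Smad9, itself a known BMP target, had 1.92 and 2.13 against 1.09 and 0.655 FPKM, on 22 and 11 counted reads with circEsyt2 siRNA, and did not pass (limma adjusted p = 0.213).

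Of 12 tested genes for extracellular antagonists and modulators, 3 fell and 0 rose. Fst, follistatin, which binds activins and some BMPs, fell from 63.6 and 73.8 FPKM to 5.09 and 5.02 FPKM (log2 fold change −3.52; limma adjusted p = 0.00256). Twsg1, which encodes a BMP-binding protein, fell from 28.5 and 26.6 to 15.5 and 14.4 FPKM (log2 fold change −0.84; adjusted p = 0.0153 in limma). Tll1, a protease gene whose product cleaves the antagonist chordin, fell from 12.3 and 14.0 to 5.55 and 6.10 FPKM (log2 fold change −1.05; limma adjusted p = 0.0144). Bmp1, of the same protease family and no BMP ligand, had 22.3 and 19.2 against 29.2 and 36.9 FPKM and missed the threshold (limma adjusted p = 0.0568). Exons of Fst overlap those of Gm47040.

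Of 10 genes of intracellular restraints, 2 fell and 1 rose. Bambi, which encodes a decoy receptor induced by BMP, fell from 2.98 and 3.59 FPKM to 0.628 and 0.756 FPKM, on 12 counted reads in each circEsyt2 siRNA library (log2 fold change −1.34; limma adjusted p = 0.0378). Ski, a SMAD co-repressor gene, fell from 31.9 and 25.2 to 15.4 and 15.3 FPKM (log2 fold change −0.84; adjusted p = 0.0248 in limma). Pmepa1, a TGF-beta-induced inhibitor gene, rose from 53.3 and 59.4 to 85.3 and 96.1 FPKM (log2 fold change 0.68; limma adjusted p = 0.0228). Skil, a relative of Ski, had 16.4 and 16.1 against 22.0 and 27.0 FPKM (limma adjusted p = 0.0632). The call of Bambi was lost with low genes kept in.

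Of 14 other BMP-responsive genes 6 were tested, and 1 fell. Atoh8, a helix-loop-helix factor gene known as a direct SMAD1/5 target in endothelium and liver, fell from 20.9 and 16.8 FPKM to 3.81 and 3.32 FPKM (log2 fold change −2.11; limma adjusted p = 0.00407). The skeletal factor gene Runx2 had 5.94 and 7.31 against 8.0 and 10.7 FPKM (limma adjusted p = 0.213), and Snai2 had 47.8 and 53.0 against 63.5 and 64.6 FPKM (adjusted p = 0.106 in limma). Gata2 had 6.63 and 5.13 against 3.54 and 5.04 FPKM (limma adjusted p = 0.314). The 8 genes too low to test included Msx1, Msx2, Hey1 and Dlx5. Hamp, the hepcidin gene that BMP induces in liver, had 24.6 FPKM in circEsyt2 siRNA replicate 1 and 0 in the other libraries, as part of the hepatocyte markers.

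Of 8 tested genes for E proteins and other partners of ID proteins, 2 fell and 1 rose. Twist1 and Twist2, helix-loop-helix factor genes of mesenchymal cells, had 25.1 and 24.2 against 13.2 and 16.5 FPKM and 55.7 and 47.2 against 35 and 31.5 FPKM. Their log2 fold changes were −0.70 and −0.61 (limma adjusted p = 0.0382 and 0.0396), and both calls were lost with low genes kept in, that of Twist1 also with voom. Ets2, an ETS factor gene, rose from 15.5 and 13.6 to 41.0 and 52.1 FPKM (log2 fold change 1.60; limma adjusted p = 0.00508). Tcf12, an E protein gene, had 12.5 and 11.1 against 5.11 and 7.45 FPKM (adjusted p = 0.0537 in limma).

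The pathway calls were read without single libraries too. Without scramble replicate 1 or scramble replicate 2, 0 of the 51 genes were called, with 18 and 22 at an unadjusted p under 0.05 in limma. Without circEsyt2 siRNA replicate 1 limma called 8, losing Eng, Tgfbr3, Smad1, Bambi, Ski, Twist1 and Twist2 and gaining Bmp1, and without circEsyt2 siRNA replicate 2 it called 3, namely Fst, Atoh8 and Ets2. With genes of residual SD 0 left out of those fits it called 16 and 14, among them all of the 14 but Twist1 in the first and all but Twist2 in the second, while the scramble fits stayed at 0. With eBayes without a trend, 6 were called, and Eng, Tgfbr3, Smad1, Twsg1, Pmepa1, Ski, Twist1 and Twist2 were not.

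**Figure D4:**
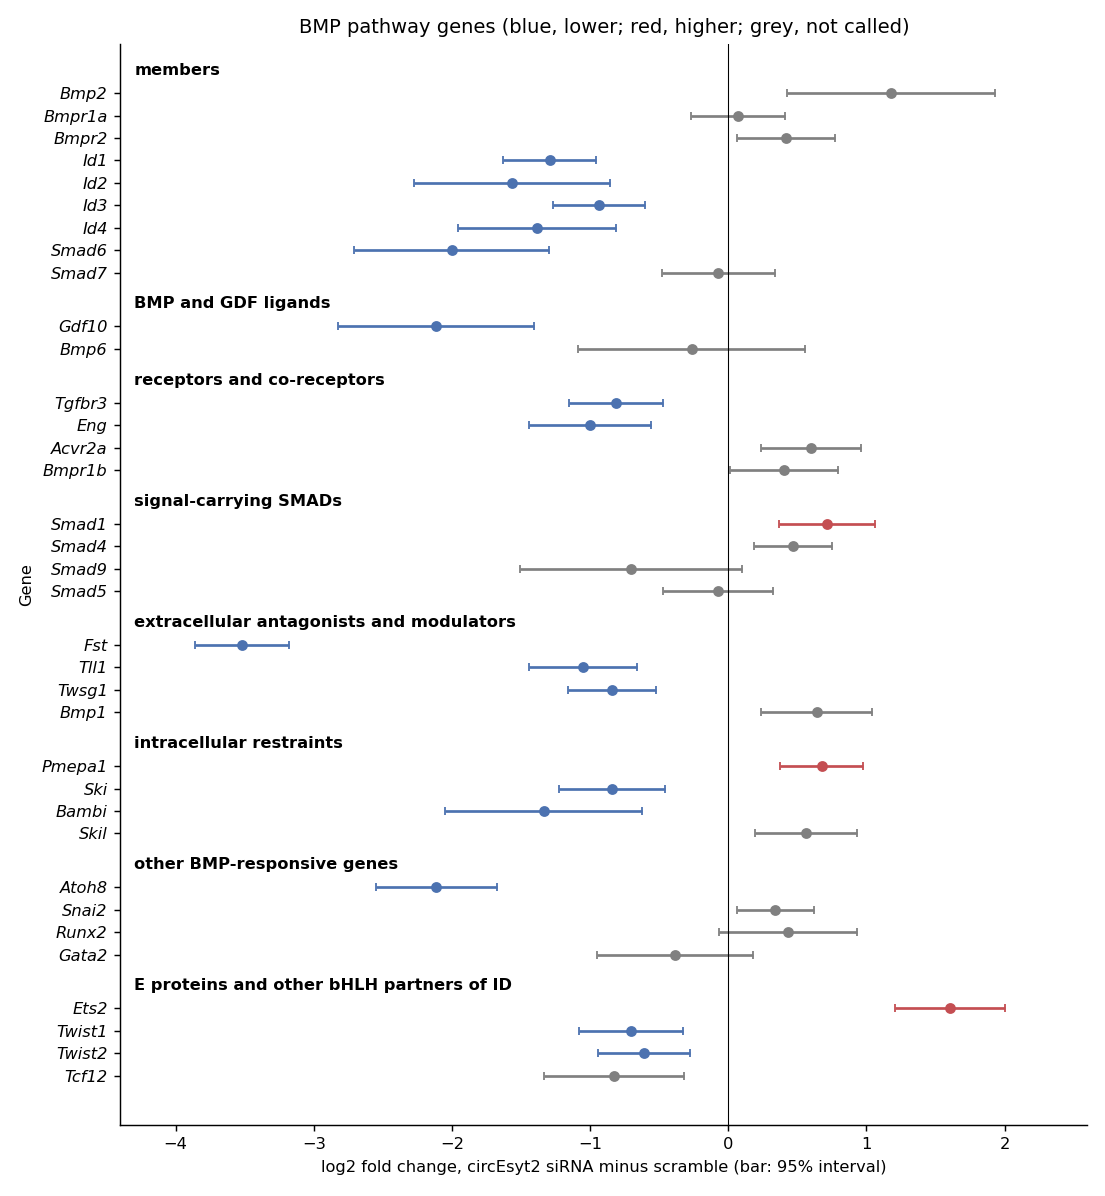
Log2 fold changes (points) with 95% intervals (bars) from limma for the 9 tested genes of the 10 and for the named genes of 7 pathway lists. Blue is lower, red higher and grey not called with circEsyt2 siRNA. Atoh8 and Gdf10 lie near Smad6, at −2.11, −2.12 and −2.0, and Smad1 lies at 0.71.

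Likeness to each ID gene was measured as the root mean square distance between log2(FPKM + 1) profiles centred over the 4 libraries. The nearest genes to Id1 were Ly6a (0.027), Oaf (0.044) and Rassf3 (0.044), and those to Id2 were Elovl6 (0.013), Ackr3 (0.062) and Tmem100 (0.084). Nearest to Id3 were Clec1a (0.019), Ptger4 (0.020) and Trim21 (0.024), and to Id4 Entpd6 (0.062), Itln1 (0.069) and Lurap1l (0.075). Of these, Tmem100, Clec1a, Ptger4 and Itln1 did not pass the test (limma adjusted p = 0.0650, 0.164, 0.0812 and 0.0894). Clec1a had 1.46 and 1.88 FPKM with scramble siRNA against 0.513 and 0.247 FPKM with circEsyt2 siRNA, far below Id3. Adding 1 shrinks the change of such low genes, so nearness here need not mean a like fold change. Among the 10 genes, Id4 was the nearest to Id1 (0.12) and to Id2 (0.18), and Id1 the nearest to Id3 (0.18). Id4 held rank 64 among all tested genes by nearness to Id1, and Id1 held rank 16 for Id4. For Id2, Id4 held rank 28, Id1 rank 79 and Id3 rank 379, and for Id4, Id2 held rank 58 and Id3 rank 189. By nearness to Id1, Id3 held rank 202 and Id2 rank 454. For Id3, Id1 held rank 450, Id4 rank 999 and Id2 rank 3029, so many other genes lay closer to Id3 than the ID genes did.

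**Figure D5:**
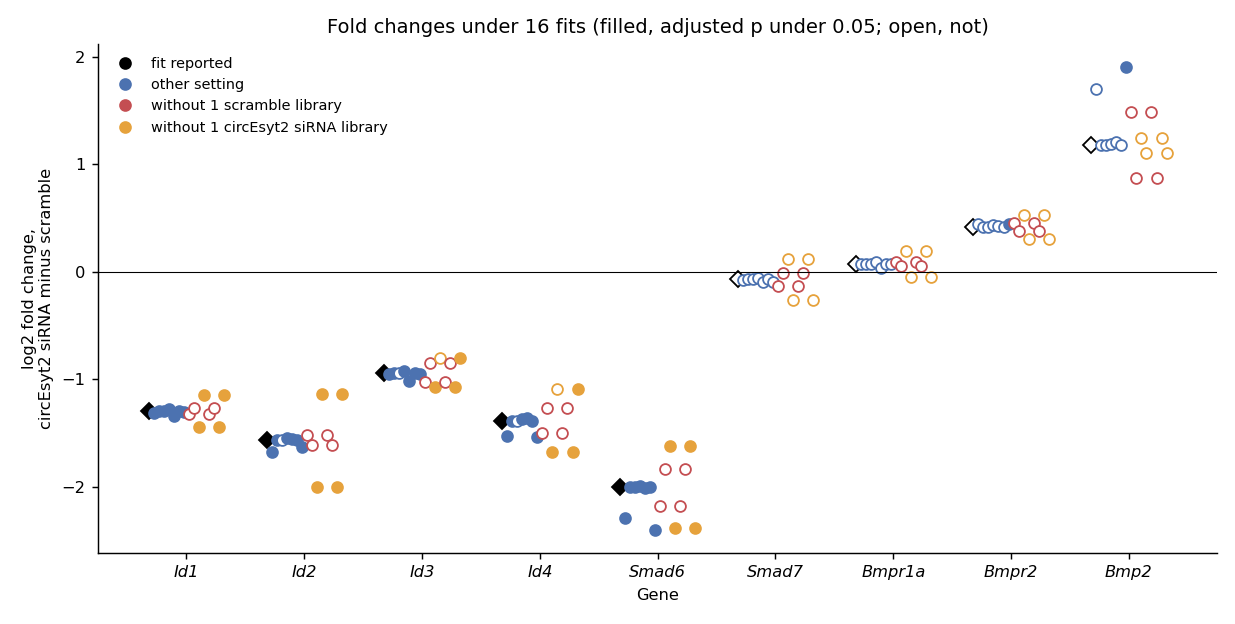
Log2 fold change of the 9 tested genes under the fit reported here (black) and 15 alternatives, filled where the adjusted p was under 0.05. All points of Id1, Id2, Id3, Id4 and Smad6 lie below 0, and the open red points are the fits without 1 scramble library.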

How the data were processed

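RNA of 4 libraries was sequenced with reads of 150 bp, per the labels. FPKM values were deposited by the authors, with 1 file per library. The submitters' processing notes list Trimmomatic, HISAT2, featureCounts, mm10 and GRCm38. Versions, settings, strand use and annotation: not given in the sources used here. Counts were recovered from the FPKM with exon-union lengths of GENCODE M21: 96.6% of values above 0 came out whole within 0.0001. Of counts from 1 to 10, 64.0% to 77.0% were even, against 49.2% to 52.2% of counts above 100 and up to 1000. They are called counted reads, and 2 of them need not be independent fragments. Floors cover counting error only.

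The test was limma 3.58.1 in R 4.3.3 (two-sided, trended eBayes) of log2(FPKM + 1), keeping genes whose mean FPKM was 1 or more, with Benjamini-Hochberg adjustment over all 11290 genes and a threshold of 0.05. The fit was tested on simulated data. Named were all 10 genes, every called gene and the 4 smallest p in each pathway list, and the 3 nearest profiles to each ID gene, passing over predicted genes and pseudogenes. The 10 genes and the lists were chosen with earlier results of these data known. Coordinates are 1-based on GRCm38 from M21. Alternatives were another pseudocount, no filter, no trend, 2 scalings, a replicate block, voom and leaving out each library, with the filter recomputed over the libraries kept and, as an added alternative, without genes of residual SD 0.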

Additional observations from a re-analysis of the deposited data

How the results depend on the processing

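Over 36 named genes (Esyt2 included) and 15 alternatives, 395 of 540 values kept their direction and their side of the threshold. Calls over all genes numbered 1437, and 577 with eBayes without a trend; leaving out 1 library gave 0 to 1027, with 500 without circEsyt2 siRNA replicate 2. With genes of residual SD 0 left out of those fits, added after seeing the data, the range was 0 to 1856, with 0 again without either scramble library (2026 and 2276 at an unadjusted p under 0.05). Of the 10 genes, 5 were called, 2 with eBayes without a trend (Id1 and Smad6), and 0 to 5 with 1 library left out. Pathway genes called went from 14 to 6 with eBayes without a trend, and to 0 to 8 with 1 library left out (0 to 16 without genes of residual SD 0). The counts of 0 came without scramble replicate 1 and without scramble replicate 2, where limma gave 1959 and 2231 genes an unadjusted p under 0.05. The fits without 1 circEsyt2 siRNA library also had 1 library fewer. Without 1 scramble library, the residual spread of a gene comes only from the 2 circEsyt2 siRNA libraries. The cause of the difference in calls was not tested. Signs turned only for genes that did not pass, with 1 library left out: Bmpr1a ranged from −0.0512 to 0.20, Smad7 from −0.26 to 0.12, Bmp6 from −0.58 to 0.0498 and Smad5 from −0.18 to 0.0304 (0.0083 without circEsyt2 siRNA replicate 2). The numbers do not pair the libraries by any label (r of replicate differences across 11290 genes −0.0507). With the replicate block 1008 genes, 5 of the 10 genes and 10 pathway genes were called, and Smad1, Bambi, Twist1 and Twist2 lost their calls. With 27 to 50 counted reads behind the lowest Smad6, Bmp2, Id2 and Id4 values with circEsyt2 siRNA, depth limits their precision.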

Other observations

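Genes known to respond to TGF-beta, the sister branch that signals through SMAD2 and SMAD3, were looked up after the values above were seen, so they are given as values only. Ctgf, a matricellular protein gene now named Ccn2, had 345 and 387 FPKM with scramble siRNA and 781 and 870 FPKM with circEsyt2 siRNA. Both circEsyt2 siRNA libraries were above both scramble libraries for Ctgf, Skil and Pmepa1. Tgfbi had 4.74 and 3.99 against 3.66 and 1.19 FPKM, and Ldlrad4 had 6.22 and 5.65 against 4.16 and 5.0 FPKM, both lower in both circEsyt2 siRNA libraries. Smad7, which belongs to both branches, was the 1 gene of these 6 whose groups overlapped. Over all tested genes the groups did not overlap for 60.7%, in either direction.

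Hfe2, the gene of the BMP co-receptor hemojuvelin (now Hjv), had 2.10 FPKM from 16 counted reads in circEsyt2 siRNA replicate 1, the library with the highest hepatocyte markers, and 0 in the other 3 libraries.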
